A study of Sus scrofa with 12 samples.

Results

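The miR-34 and miR-449 family was followed in testis libraries of Hezuo (HZ) boars and Landrace (LC) boars, for both miRNA arms and all listed copies. Members were all listed miRNAs whose name is miR-34 or miR-449, with or without a copy letter and with or without the pig prefix ssc. This rule gave 8 of the 1452 miRNAs listed. They are ssc-miR-34c, ssc-miR-34a, miR-34-x, miR-34-y, miR-34-z, miR-449-x, miR-449-y and miR-449-z. The rule reads names only and uses no measured value, though it was set with earlier results of these data known.

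Small RNA of testis tissue was sequenced in 4 groups of 3 libraries. Ha and La came from HZ and LC boars aged 30 days, and Hb and Lb from those aged 120 days. The labels give no treatment, and the testes had been removed by castration. The study's methods give 3 boars for each breed and age and state that RNA was extracted from pooled samples. They do not say whether a library held 1 boar or a pool, so p-values measure the spread between these libraries. The libraries held from 6520197 to 16874633 listed miRNA counts. The 3 Hb libraries stood further apart than those of any other group: the chi-square per degree of freedom between 2 libraries was 418 to 1178 in Hb and 49.4 to 243 in the other groups. For the members with a value in every library, values without a single library are given below where its removal moved a called value by more than 1.5 times or changed a call.

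The miR-34 and miR-449 miRNAs form one family because their 5′ arms carry the same seed, the bases by which a miRNA pairs with its target mRNAs. In mammals miR-34b/c and miR-449 are abundant in multiciliated epithelia, such as that of the efferent ducts, and in germ cells from meiosis onwards. miR-34a is transcribed from a locus of its own, is found in many tissues and is a known target of p53. The libraries came from whole testis, so the cells that held these miRNAs were not observed, and more cells of a type cannot be told apart from more RNA per cell.

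The mature sequences are shown because the seed and the small differences beside it define the members. Each is written 5′ to 3′ as deposited, with bases 2 to 8, the seed, in capitals.
ssc-miR-34c: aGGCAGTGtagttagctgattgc
miR-34-x: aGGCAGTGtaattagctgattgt
miR-34-z: aGGCAGTGtagttagctgattgcga
ssc-miR-34a: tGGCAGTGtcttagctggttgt
miR-449-x: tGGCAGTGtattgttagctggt
miR-449-z: tGGCAGTGtattgttagctggtagt
miR-34-y: aATCACTAattccactgccatc
miR-449-y: cAGCCACGactaccctgccact

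The seed GGCAGTG was shared by 6 of the 8 members. The other 2, miR-34-y and miR-449-y, had seeds carried by no other listed miRNA. With positions counted from 1 at the 5′ end of ssc-miR-34c, miR-34-x differed from it by G11A and C23T. The 25-nt miR-34-z and miR-449-z were the sequences of ssc-miR-34c and miR-449-x with 2 and 3 bases more at the 3′ end. What the letters x, y and z stand for is not given in the sources used here.

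Outside the named family, 2 of the miRNAs predicted in this study carried the same seed, here named by number and arm. They are shown because their hairpins place the miR-449 members in the genome.
m0250-5p: tGGCAGTGtattgttagctggttga
m0071-5p: aGGCAGTGtattgttagctggctgc
Their hairpins lay on the minus strand of chromosome 16 (Sscrofa11.1), at chr16:34347016-34347078 and chr16:34347137-34347199 as deposited. The deposited span counts 63 positions for a hairpin of 62 bases, so an end may be off by 1 base. Both lay within the bounds of CDC20B (chr16:34294486-34354588), the gene that hosts the miR-449 cluster in mammals. The RefSeq gene table used gives gene bounds but no exons. miR-449-x matched bases 1 to 22 of the m0250 hairpin, its 5′ arm. miR-449-y matched bases 41 to 62 of the m0071 hairpin, its 3′ arm. The listed 5′ and 3′ miR-449 members thus come from 2 neighbouring hairpins. Their 5′ arms are near-copies: within the 22 bases of miR-449-x, m0071-5p differed from it by T1A and T22C, and m0250-5p by no base. The last bases of miR-449-z differed from the hairpin sequence in m0250-5p by T23A and A25T, with positions counted from its 5′ end. The annotated pig gene MIR34C-1 lies at chr9:39280278-39280357, within the bounds of BTG4 and C9H11orf88. Near-identical sequences can share reads, so the split among ssc-miR-34c, miR-34-z and miR-34-x, and among the miR-449 entries, is uncertain.

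Summed over the 8 members, the family was scarce at 30 days and among the more abundant miRNAs at 120 days. Its share of all listed counts was 0.00909% ± 0.00424 (SD, n = 3) for Ha and 0.00387% ± 0.000625 (SD, n = 3) for La. At 120 days its share was 0.959% ± 0.691 (SD, n = 3) in Hb and 1.62% ± 0.170 (SD, n = 3) in Lb. The 3 Hb libraries held 0.838%, 0.337% and 1.70%, against 1.79%, 1.61% and 1.45% in Lb. Every 120-day library was thus above every 30-day library, and the spread in Hb was far wider than in Lb.

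**Figure D1:**
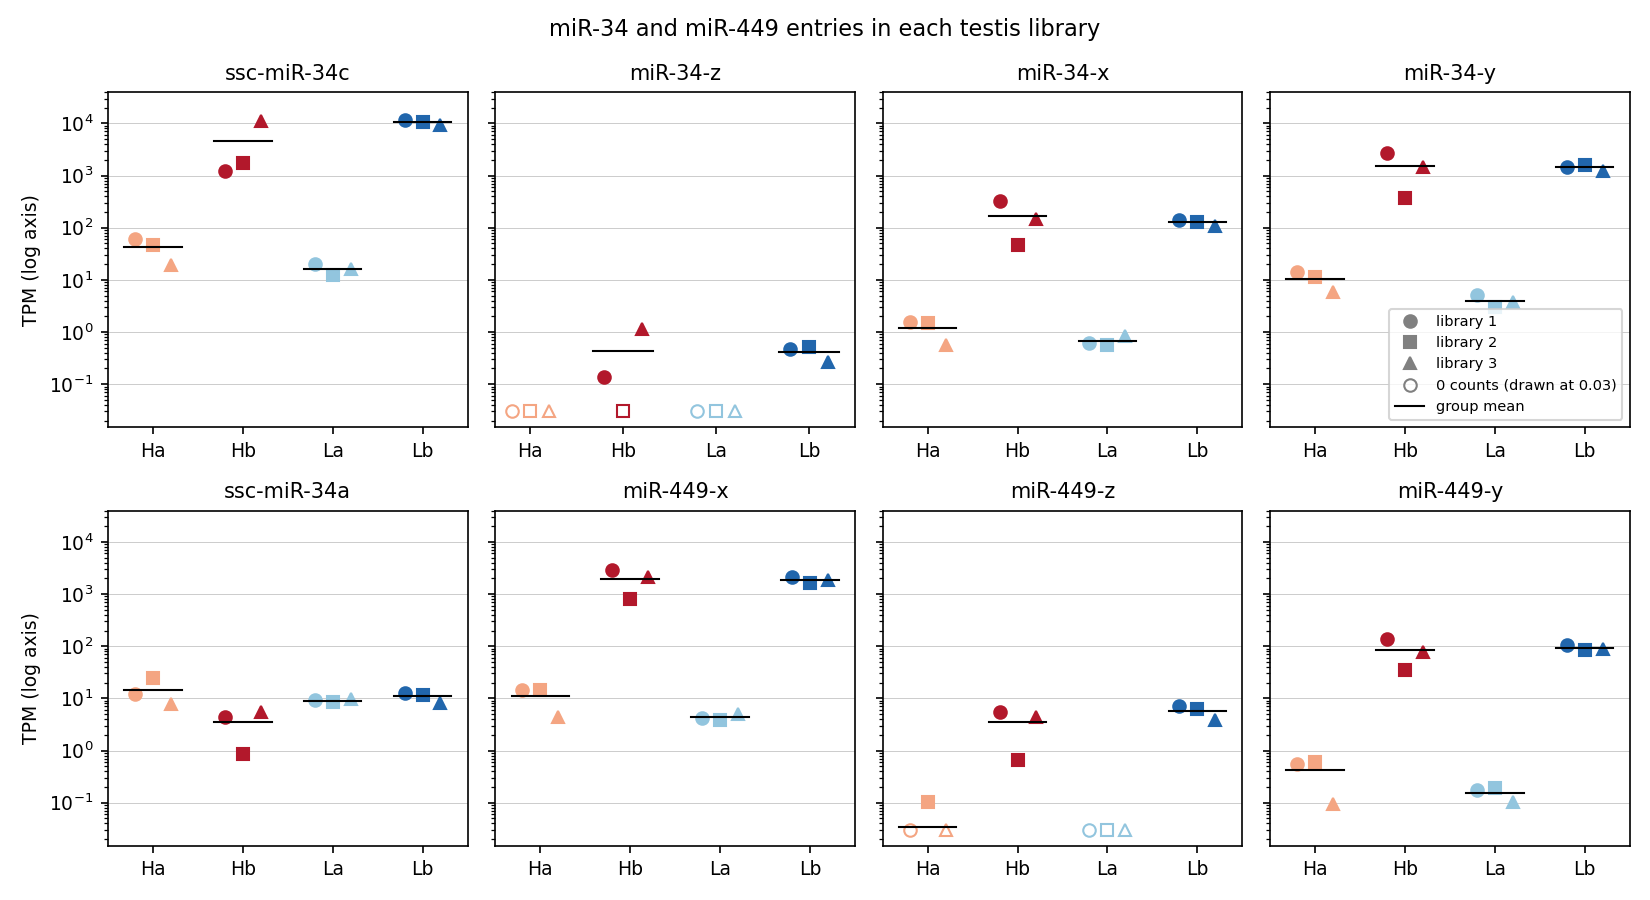
Level of each miR-34 and miR-449 member in every library, in deposited TPM (counts scaled to a common library total) on a log axis, for Ha and Hb (Hezuo, 30 and 120 days) and La and Lb (Landrace, 30 and 120 days). Marker shapes stand for libraries 1 to 3, open markers for 0 counts and lines for group means; all members but ssc-miR-34a and the rare miR-34-z sit higher in every library at 120 days, and the Hb libraries are spread more widely than the Lb libraries.

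Of the 5′ members, ssc-miR-34c was the most abundant in 11 of the 12 libraries, and miR-449-x exceeded it in Hb1. Its level, in deposited TPM (counts scaled to a common library total), was 61.95, 47.29 and 18.98 in Ha1, Ha2 and Ha3, and 20.16, 12.51 and 15.97 in the 3 La libraries. It was 1218, 1732 and 11014 TPM in Hb1, Hb2 and Hb3, and 11634, 10627 and 9330 TPM in the 3 Lb libraries. Hb3 lay among the Lb libraries, whereas Hb1 and Hb2 lay well below them. Ordered by mean, the groups ran La, Ha, Hb and Lb. Of the neighbours in this order, Ha and Hb did not overlap, whereas La overlapped with Ha and Hb with Lb. Among all miRNAs listed, ssc-miR-34c held ranks 232 to 366 in the 30-day libraries, ranks 67, 50 and 18 in Hb1, Hb2 and Hb3, and ranks 21 to 23 in Lb.

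miR-34-x, which differs from ssc-miR-34c at 2 positions, was much scarcer. It had 1.57, 1.52 and 0.556 TPM in Ha, and 0.611, 0.569 and 0.843 TPM in La. At 120 days it had 319.1, 45.7 and 145.3 TPM in Hb1, Hb2 and Hb3 and 142.3, 129.9 and 109.6 TPM in Lb. Here Hb1 was the highest library and Hb2 the lowest of the 120-day libraries, unlike ssc-miR-34c, for which Hb1 was the lowest.

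miR-449-x, the more abundant of the 5′ miR-449 members, had 14.4, 14.4 and 4.44 TPM in Ha and 4.28, 3.89 and 5.06 TPM in La. It reached 2941, 813 and 2081 TPM in Hb1, Hb2 and Hb3 and 2147, 1602 and 1856 TPM in Lb. Hb1 was again the highest and Hb2 the lowest at 120 days.

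The member with its own locus, ssc-miR-34a, followed another pattern. It had 12.3, 24.1 and 7.69 TPM in Ha and 4.31, 0.872 and 5.53 TPM in Hb. In LC boars it had 9.16, 8.44 and 9.65 TPM at 30 days and 12.8, 11.5 and 8.28 TPM at 120 days. All 3 Hb libraries lay below every other library, and Hb2, with 8 counts, was the lowest.

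Of the members without this seed, miR-34-y was nearly as abundant as miR-449-x. It had 13.9, 11.2 and 5.74 TPM in Ha and 5.24, 3.03 and 3.80 TPM in La. At 120 days it had 2734, 378 and 1470 TPM in Hb1, Hb2 and Hb3 and 1488, 1619 and 1219 TPM in Lb. miR-449-y, a 3′ arm member from the neighbouring miR-449 hairpin, was seen 6, 6 and 1 times in Ha and 2 times in each La library. It reached 138, 34.8 and 77.7 TPM in Hb and 106, 84.5 and 89.7 TPM in Lb. Both had the order of libraries seen for miR-34-x within Hb, with Hb1 highest and Hb2 lowest.

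The longer variants were rare. miR-449-z was seen 0, 1 and 0 times in Ha and in no La library. At 120 days it had 40, 6 and 34 counts in Hb and 110, 59 and 44 counts in Lb. A count of 0 allows up to 3 counts, or 0.158 to 0.404 TPM depending on the library. miR-34-z was seen in no 30-day library, 1, 0 and 9 times in Hb and 7, 5 and 3 times in Lb. The predicted miRNAs that carry the family seed were also absent from the counts at 30 days. m0071-5p had 29, 4 and 18 counts in Hb and 40, 24 and 49 in Lb, and m0250-5p had 0, 1 and 4 in Hb and 7, 2 and 3 in Lb.

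In Ha vs. Hb, which asks how the testis miRNAs of HZ boars change between 30 and 120 days, 5 of the 6 members with a count in every library rose and 1 fell. A member was called when p was under 0.05 and the log2 fold change above 1 in size. By this rule 25.1% of the 1441 miRNAs tested were higher in Hb and 14.4% were lower. With p adjusted over all miRNAs tested, 5 of the 6 members were higher and 1 lower, against 20.3% and 11.3% of all miRNAs. The median log2 fold change was 7.12 over the 6 members and 0.32 over all miRNAs tested. ssc-miR-34c rose by 6.90 ± 0.83 (log2, SE), a 119-fold difference (adjusted p = 3.69e-05), with all 3 Hb libraries above all 3 Ha libraries. The log2 value was 7.48 without Hb1 and 5.37 without Hb3. miR-449-x rose by 7.47 ± 0.52, or 177-fold (adjusted p = 1.73e-07).

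The other members with a value in every library moved by similar amounts. miR-34-y rose by 7.17 ± 0.57 (log2, SE) and miR-34-x by 7.07 ± 0.59. miR-449-y rose by 7.61 ± 0.57. For these 3, as for ssc-miR-34c and miR-449-x, the Ha and Hb libraries did not overlap. The length variants miR-449-z and miR-34-z, with 1 and 0 counts in Ha, entered the test through Hb, so their calls are not counted. The summed counts of miR-449-z were 103-fold higher relative to the library totals, with a 95% exact counting interval of 18 to 4136. miR-34-z, absent in Ha, was at least 1.51-fold higher in Hb against a floor of 3 counts per library, and 9 of its 10 counts in Hb were in Hb3. ssc-miR-34a fell by 2.02 on the log2 scale (SE 0.54, adjusted p = 0.0104), and its groups did not overlap. Without Ha2, its highest library, the log2 value of ssc-miR-34a was -1.43 and it did not pass after adjustment (adjusted p = 0.0851, the upper end of its range over the alternatives, 0.00271 to 0.0851). Leaving out single Hb libraries gave -2.55 to -1.63, and it passed after adjustment each time.

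In La vs. Lb, the same question for LC boars, 5 of the same 6 members rose and none fell. At this rule 26.3% of the 1446 miRNAs tested were higher in Lb, and 23.2% after adjustment, which left the count of members at 5. The median log2 fold change was 8.41 over the 6 members and 0.32 over all miRNAs tested. ssc-miR-34c rose by 9.16 ± 0.19 (log2, SE), a 572-fold difference (adjusted p = 1.94e-12). miR-449-x rose by 8.52 ± 0.17, or 366-fold (adjusted p = 1.94e-12). By p-value these ranked 3 and 1 among the 1446 miRNAs.

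miR-34-y rose by 8.31 ± 0.21 (log2, SE) in LC boars, miR-34-x by 7.30 ± 0.23 and miR-449-y by 9.03 ± 0.25. The level of miR-449-y at 30 days rested on 6 counts in all, and the ratio of summed counts had a 95% exact counting interval of 298 to 1773. miR-449-z and miR-34-z had 0 counts in every La library and entered the test through Lb alone, so their calls are not counted as risers. Relative to a floor of 3 counts per library, the 120-day level of miR-449-z was at least 24.7-fold higher, and that of miR-34-z at least 1.78-fold higher, a bound below the size that a call needs. ssc-miR-34a had a log2 fold change of 0.07 ± 0.22 (adjusted p = 0.815) and its groups overlapped.

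**Figure D2:**
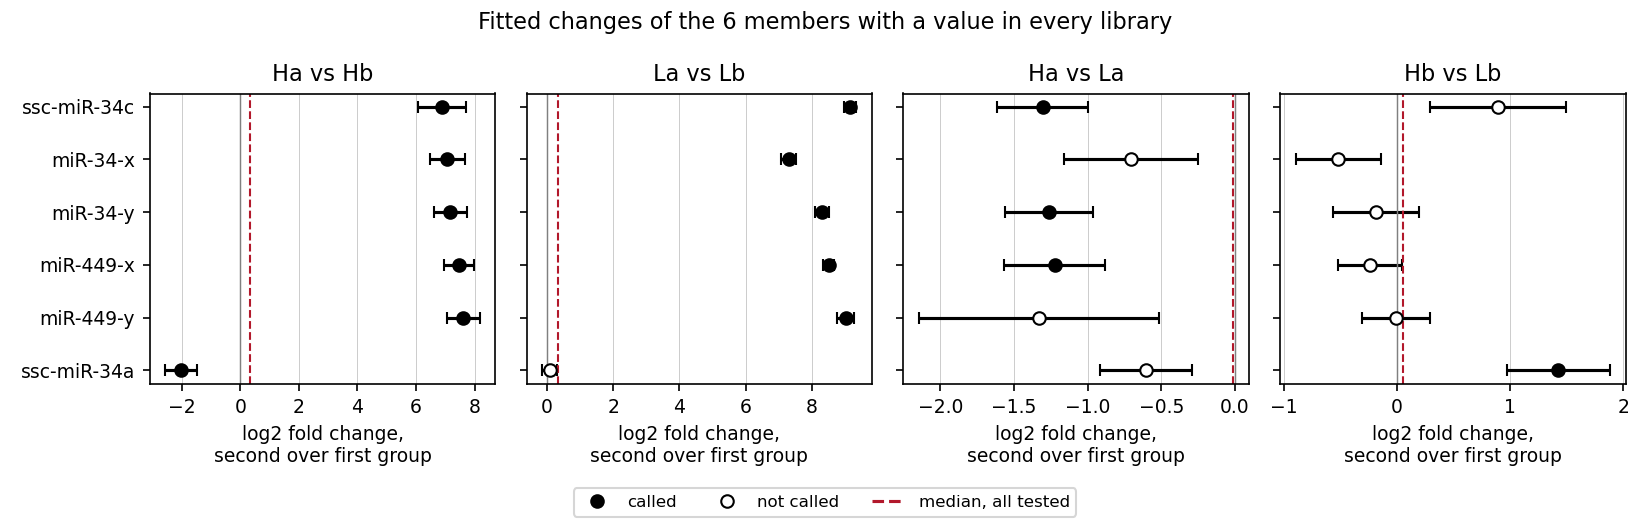
Log2 fold change (second group over first, edgeR quasi-likelihood fit) of the 6 members with a value in every library, in the 4 comparisons. Points are estimates, bars are standard errors, filled points passed p under 0.05 with an absolute log2 fold change above 1, and dashed lines mark the median of all miRNAs tested; the age changes of all but ssc-miR-34a lie between 6.90 and 9.16, and the x axes differ between panels.

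In Ha vs. La, which compares the breeds at 30 days, 3 of the 7 members tested were lower in LC boars and none was higher. The background was 5.71% of the 1278 miRNAs tested, or 3.60% after adjustment, and with all 6 libraries the 3 members passed after adjustment. ssc-miR-34c had a log2 fold change of -1.31 ± 0.31 (SE), which is 2.47-fold higher in HZ boars (adjusted p = 0.0140). miR-34-y was 2.40-fold higher in HZ boars (adjusted p = 0.0140) and miR-449-x 2.34-fold (adjusted p = 0.0328). The groups overlapped for ssc-miR-34c and miR-449-x, since Ha3 was near the La libraries, and did not overlap for miR-34-y. The call of ssc-miR-34c was lost without Ha1 (log2 fold change -0.99) and that of miR-449-x without Ha2 (-0.99). After adjustment none of the 3 passed without Ha1 (adjusted p = 0.0607 for ssc-miR-34c, 0.0630 for miR-34-y and 0.118 for miR-449-x) or without La2 (adjusted p = 0.0689, 0.0682 and 0.105). miR-449-x passed after adjustment only with Ha3 left out among the 6 removals, with an adjusted p of 0.0527 to 0.118 in the other 5. Without Ha3, miR-34-x and miR-449-y were also called, which made 5. The adjusted p of ssc-miR-34c was 0.369 with all 12 libraries in 1 fit and 0.185 with robust estimation of the spread, at the upper end of its range over the alternatives (3.62e-24 to 0.369). In the fit of all 12 libraries the adjusted p was 0.175 for miR-34-y and 0.121 for miR-449-x, so none of the 3 passed after adjustment there.

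The remaining members had log2 fold changes of -0.60 ± 0.31 (SE) for ssc-miR-34a, -0.71 ± 0.45 for miR-34-x and -1.33 ± 0.81 for miR-449-y in Ha vs. La, and none passed the test. miR-34-x rested on 38 counts in Ha and 29 in La, and miR-449-y on 13 and 6. miR-34-z, with 0 counts in both groups, was not tested.

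In Hb vs. Lb, which compares the breeds at 120 days, 1 of the 8 members was called, ssc-miR-34a, against 8.45% of the 1444 miRNAs tested that were higher in Lb. ssc-miR-34a was higher in Lb by 1.43 ± 0.46 (log2, SE), a 2.69-fold difference in which the groups did not overlap. Its adjusted p was 0.0926, so no member passed after adjustment, where 1.11% of all miRNAs were higher in Lb. With DESeq2 it passed (adjusted p = 0.0368), and over the alternatives its adjusted p ran from 0.0147 to 0.289. Its log2 value was 1.09 to 1.95 with single Hb libraries left out, and it was called each time. ssc-miR-34c had a log2 fold change of 0.89 ± 0.60 (adjusted p = 0.415) with overlapping groups. This value depended on the Hb libraries: it was 0.41 without Hb1, and 2.37 without Hb3, when it was called (adjusted p = 0.0341, against a range of 0.000552 to 0.647 over the alternatives tried). The values of the other members were -0.24 ± 0.28 for miR-449-x, -0.18 ± 0.38 for miR-34-y, -0.52 ± 0.37 for miR-34-x and -0.01 ± 0.30 for miR-449-y, and each overlapped between the breeds.

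The difference between the breeds in the age change was tested as an interaction over all 12 libraries. It was called for 2 members, ssc-miR-34c and ssc-miR-34a, where 17.1% of the 1452 miRNAs tested were called in either direction. After adjustment no member passed, and 1.31% of all miRNAs did. The age change of ssc-miR-34c was larger in LC boars by 2.21 ± 0.85 (log2, SE, adjusted p = 0.140). The age change of ssc-miR-34a was more positive in LC boars by 2.04 ± 0.63 (adjusted p = 0.0845). Without Hb3 the difference for ssc-miR-34c was 3.74 and passed after adjustment (adjusted p = 0.0113, against a range of 0.0113 to 0.285 over the alternatives), and without Hb1 it was 1.73. For ssc-miR-34a it was 1.45 without Ha2 (adjusted p = 0.211) and 2.56 without Hb3, with adjusted p from 0.0288, which it had with DESeq2, to 0.211 over the alternatives. miR-449-x, miR-34-y and miR-449-y had differences of 1.01 ± 0.50, 1.08 ± 0.57 and 1.35 ± 0.75, and miR-34-x of 0.19 ± 0.65. miR-449-x, miR-34-y and miR-449-y were called without Ha3, and also without Hb1, which raised the count to 5 each time. With robust estimation of the spread, ssc-miR-34c lost its call.

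Ratios between members within a library do not depend on how libraries are scaled. That of ssc-miR-34c to miR-34-y was out of its usual range in Hb1, and 2 ratios shifted with age in LC boars. With 1 added to each count, ssc-miR-34c was 4.43, 4.21 and 3.27 times as abundant as miR-34-y in Ha and 3.80, 4.03 and 4.16 times in La. In Lb the ratio was 7.82, 6.57 and 7.65. In Hb it was 0.446 in Hb1, 4.57 in Hb2 and 7.49 in Hb3. Hb1 was thus the only library of the 12 in which ssc-miR-34c was scarcer than miR-34-y. The ratio in Hb3 lay in the range of Lb, and that in Hb2 was just above the range of the 30-day libraries.

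As a share of the family, ssc-miR-34c was 16.6% in Hb1, against 43.7% to 75.5% in the other 11 libraries. The mean log2 ratio of ssc-miR-34c to miR-34-y was 1.976 ± 0.234 (SD, n = 3) for Ha and 1.999 ± 0.066 for La. It was 1.311 ± 2.174 for Hb and 2.873 ± 0.138 for Lb. In LC boars every 120-day ratio was therefore above every 30-day ratio. The ratios carried no test, since they were described and not fitted.

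**Figure D3:**
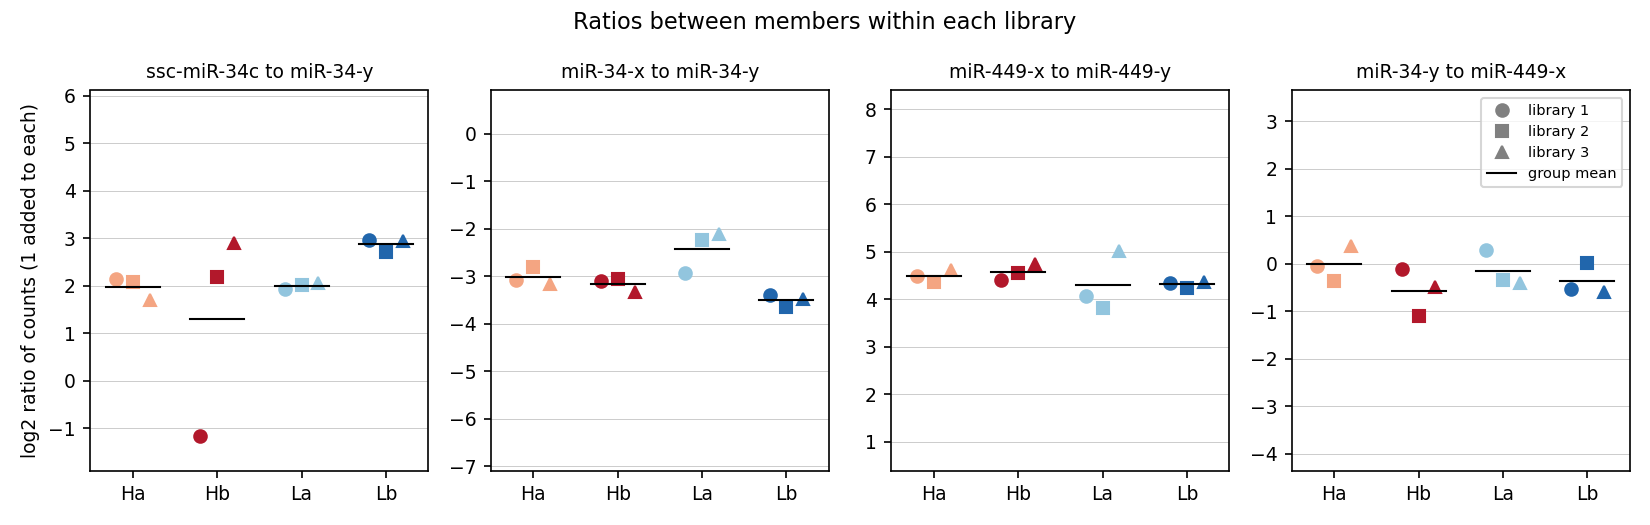
Log2 ratios of counts between pairs of members within each library, with 1 added to each count, in Ha, Hb, La and Lb; markers are libraries 1 to 3 and lines are group means, and all panels span the same range of log2 units. ssc-miR-34c to miR-34-y drops to -1.17 in Hb1 alone, and lies between 1.71 and 2.97 in the other 11 libraries; miR-34-x to miR-34-y is lower in every Lb than in every La library.

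The ratio of miR-34-x to miR-34-y also shifted with age in LC boars, in the other direction. It was 0.131, 0.212 and 0.233 in La and 0.0957, 0.0803 and 0.0900 in Lb, without overlap. Its mean log2 value was -2.42 ± 0.44 (SD, n = 3) for La and -3.50 ± 0.13 for Lb, a shift of -1.08 that was larger in size than the 0.87 of ssc-miR-34c to miR-34-y. The La values rest on 7, 6 and 16 counts of miR-34-x. In HZ boars this ratio was 0.111 to 0.144 in Ha and 0.0989 to 0.121 in Hb, which overlap, with 0.117 in Hb1.

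Neither of the remaining pairs separated the ages. miR-449-x was between 14.0 and 32.3 times as abundant as miR-449-y, with 21.3 in Hb1; the extremes were La libraries with 2 counts of miR-449-y. miR-34-y and miR-449-x, which carry different seeds, stayed between 0.466 and 1.29 of each other, and the lowest value was that of Hb2. Over the 12 libraries the log2 ratios of these 3 pairs spanned 1.54 for miR-34-x to miR-34-y, 1.21 for miR-449-x to miR-449-y and 1.47 for miR-34-y to miR-449-x. That of ssc-miR-34c to miR-34-y spanned 4.13, or 1.26 without Hb1.

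The low level of ssc-miR-34c in Hb1 was set against all 437 miRNAs that averaged 10 TPM or more over the 12 libraries. On the log2(TPM + 1) scale, the difference between Hb1 and Hb3 was -3.18 for ssc-miR-34c, the lowest of the 437, whose median was 0.27. The next lowest was that of ssc-miR-206, a miRNA of skeletal muscle, at -2.04. On the other side miR-221-y was nearly as far apart as ssc-miR-34c, at 6.41 in Hb1 and 3.25 in Hb3. ssc-miR-129a-3p (4.55 and 1.61) and ssc-miR-222 (9.92 and 7.25) were also well above their Hb3 levels in Hb1. In the same pair of libraries miR-34-y was 0.89 higher in Hb1, miR-34-x 1.13 higher, miR-449-y 0.82 higher and miR-449-x 0.50 higher. Hb2 differed from Hb3 in another way. There the difference was -2.67 for ssc-miR-34c, rank 4 from the lowest, but miR-34-y (-1.95), miR-34-x (-1.65), miR-449-x (-1.35) and miR-449-y (-1.14) were lower too, and the median of all 437 was -0.59. Between Hb1 and Hb2 the difference of ssc-miR-34c was small, at -0.51, rank 29 from the lowest, while miR-34-y was 2.85 and miR-449-x 1.85 higher in Hb1 and the median was 0.85. ssc-miR-34c also varied within Ha. Its difference between Ha1 and Ha3, 1.66, was the highest of the 437, but there miR-449-x (1.498, rank 3) and miR-34-y (1.15, rank 8) were higher in Ha1 too.

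**Figure D4:**
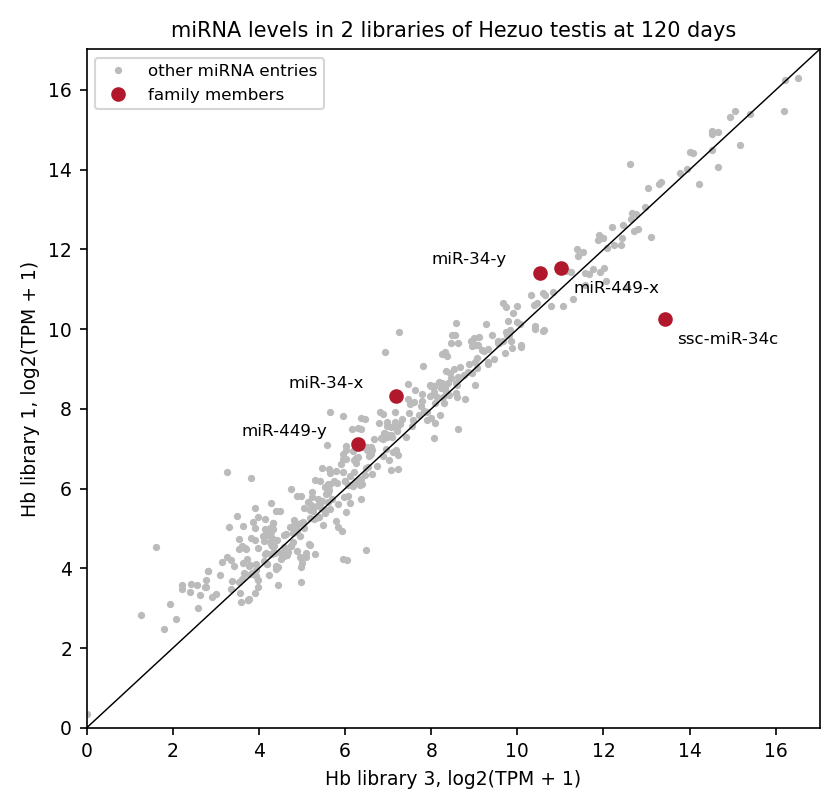
Level of each of the 437 miRNAs averaging 10 TPM or more in Hb library 1 (y axis) against Hb library 3 (x axis), both as log2(TPM + 1), with the line of equal levels. ssc-miR-34c lies furthest below this line, at a difference of -3.18. On the other side miR-221-y lies nearly as far above it, at 6.41 in Hb1 and 3.25 in Hb3. The 4 other family members shown also lie above the line.

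Outside the family, the 5 miRNAs whose log2(TPM + 1) followed ssc-miR-34c most closely over the 12 libraries, among those that averaged 10 TPM or more, were m0003-5p (Pearson r = 0.984), miR-143-y (0.979), m0012-5p (0.978), m0001-5p (0.974) and miR-508-y (0.973). All points share the step between the ages, and the libraries of a group are alike, so these values are a description. With Spearman's rank correlation none of the 5 remained among the first 5. Their steps were smaller than that of ssc-miR-34c, with log2 fold changes of 1.07 to 2.38 between the ages for HZ boars and 1.37 to 3.36 for LC boars. miR-508-y, the most abundant, averaged 7252 TPM for Ha, 3398 for La, 27950.1 for Hb and 39597 for Lb. Within the family the corresponding r with ssc-miR-34c was 0.969 for miR-449-x, 0.965 for miR-34-y, 0.962 for miR-449-y and 0.949 for miR-34-x.

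Other miRNAs known from particular cell types of the testis were read in the same libraries, as lists by miRNA number. Their counts stand beside the shares of all miRNAs tested, 25.1% higher and 14.4% lower with age in HZ boars and 26.3% higher and 5.81% lower in LC boars. For meiotic and haploid germ cells the list held 9 entries of miR-18, miR-122 and miR-184, and no entry was found for miR-469. Their summed level ran from 75.8 to 85.5 TPM for Ha and 81.8 to 85.5 for La at 30 days, and from 86.8 to 278 for Hb and 111 to 129.8 for Lb at 120 days. With age, 4 rose and 1 fell for HZ boars, and 2 rose and none fell for LC boars. ssc-miR-184 had 151, 10.2 and 117 TPM in Hb1, Hb2 and Hb3 and 12.8 to 18.5 TPM in the other 9 libraries. Its Hb libraries thus split otherwise than those of ssc-miR-34c. ssc-miR-122-5p rose with age in both breeds, by 1.34 (log2, adjusted p = 0.0293) in HZ boars and 1.03 (adjusted p = 0.00482) in LC boars. ssc-miR-18a had log2 fold changes of 0.16 and -0.19 and was not called.

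Of 14 spermatogonial entries (miR-21, miR-221, miR-222), 1 rose and 3 fell with age in HZ boars, and 5 fell in LC boars. Their summed level was 14150.0 to 17982 TPM for Ha and 7076 to 14488 for Hb. For LC boars it was 13752 to 16506 TPM at 30 days and 14341 to 19370.5 at 120 days. Of 5 entries of miR-202, a miRNA of the somatic cells of the gonad, 1 fell with age in HZ boars and none was called in LC boars. Their sums, in TPM and for Ha, Hb, La and Lb in turn, were 18675 to 21867, 9608 to 17266, 15272 to 17278 and 17966 to 24405.

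Smooth muscle and peritubular miRNAs (miR-143, miR-145) rose with age for 5 of 9 entries in HZ boars and 8 of 9 in LC boars. Their sums were 22030.0 to 36347 TPM for Ha and 58183 to 92499.6 for Hb. For LC boars they were 20687 to 26749 TPM at 30 days and 55596 to 65214 at 120 days. Striated muscle miRNAs (miR-1, miR-133, miR-206) rose for 6 and 7 of 11 entries, with sums of 132 to 284.7 TPM for Ha, 453 to 745 for Hb, 109 to 203.5 for La and 701 to 846 for Lb. These lists rose with age beside the family, and their part in its change was not tested.

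Of 12 duct epithelium entries (miR-200, miR-141, miR-429, miR-205), 2 rose and 1 fell with age in HZ boars, and 6 rose and 1 fell in LC boars. Their sums were 213.6 to 242 TPM for Ha, 60.8 to 267.5 for Hb, 159.6 to 233 for La and 163 to 396 for Lb. ssc-miR-141 rose by 1.37 (log2, adjusted p = 0.0124) in HZ boars and 2.23 (adjusted p = 6.93e-05) in LC boars. The more abundant ssc-miR-200b fell by 1.35 (log2) in HZ boars, a call lost after adjustment (adjusted p = 0.0829), and had a log2 fold change of -0.24 in LC boars. miR-200-y, the most abundant of the 3 named, had log2 fold changes of -0.9996 and 0.0075 and was not called. Entries at 0 in at least 1 group were miR-122-x, miR-141-x, miR-205-x, miR-205-y, miR-133-y and miR-206-y. The list counts were taken over all entries tested, these included, unlike those of the family. A call of such an entry can rest on the libraries of 1 group alone. Of 17 blood entries, 2 fell with age in HZ boars and 4 in LC boars, and sums were 2259 to 2672 TPM for Ha, 1218 to 3061 for Hb, 3359.5 to 3718 for La and 1887 to 2329 for Lb. None of the 4 endothelial entries of miR-126 was called with age, and their sums were 12672 to 15839, 11458 to 12312.5, 11712 to 13364 and 8701 to 11242.5 TPM, in the same order of groups.

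Some of these lists also differed between the breeds. In Ha vs. La, where ssc-miR-34c, miR-34-y and miR-449-x were lower in LC boars, 4 of 14 spermatogonial entries (median log2 fold change 0.55) and 3 of 17 blood entries (0.48) were higher in LC boars and none was lower, against 3.76% of all miRNAs tested that were higher. For smooth muscle 1 of 9 entries and for duct epithelium 1 of 11 tested were lower in LC boars, and no entry of the germ cell, gonad somatic, endothelial or striated muscle lists was called. In Hb vs. Lb, where 8.45% of all miRNAs tested were higher and 8.38% lower, 1 germ cell entry was higher in Lb and 3 were lower. Of the spermatogonial entries 2 were higher and 4 lower. Of the duct epithelium entries 2 were higher, and of the striated muscle entries 2 were higher and 1 lower. For smooth muscle 2 entries and for endothelium 1 were lower, and no blood or gonad somatic entry was called. The part of these lists in the differences of the family was not tested.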

How the data were processed

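Small RNA libraries were made from testis with a NEBNext kit after size selection and sequenced on an Illumina HiSeq. The authors removed poor reads with fastp, discarded tags of other RNA classes, exons, introns and repeats, assigned known miRNAs against miRBase by bowtie, and took further ones from miRDeep2 predictions on Sscrofa11.1. The deposited counts are whole tag counts for each of 1452 miRNAs. The deposited TPM is the count scaled to a common total, relative to a library total somewhat larger than the listed counts, with a count of 0 written as 0.01. The prediction table gives hairpin sequences with a deposited miRDeep2 score and the hairpin's GC percent as deposited, which served no test. The libraries had no stated molecular identifiers and PCR copies are not independent, so intervals and floors cover counting error only.

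Members were set by the rule on names, which uses no measured value, and lists by miRNA number. Both choices were made with earlier results of these data known. Changes were fitted on counts with edgeR 4.0.16 (R 4.3.3) quasi-likelihood tests and TMM scaling over all miRNAs with at least 1 count, using the 6 libraries of a comparison or all 12 for the interaction. p-values were adjusted by Benjamini-Hochberg over all miRNAs tested. Calls used p under 0.05 and an absolute log2 fold change above 1, as in the study. The fit was tested on simulated data in which 200 miRNAs were changed, with the same dispersion for every miRNA and group. The wider spread of the Hb libraries was not simulated, so that test does not cover it. Named miRNAs were all members, entries with a member's seed or within 3 edits of a member, the 5 most alike ssc-miR-34c, and up to 3 abundant entries of each cell type list. Ratios used counts plus 1. No replicate pair within a group agreed within sampling noise. Alternatives were other scalings, filters and tests (DESeq2 1.42.0 among them), merged length variants, and each library left out.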

Additional observations from a re-analysis of the deposited data

Results flagged for a closer look

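By the interaction test in edgeR, 2 of the 8 members were called before adjustment and 0 after it. The shares of all miRNAs tested were 17.1% and 1.31%. With 8 members this count cannot be told apart from these shares. Both called members are among the 6 with a count in every library. The log2 age change of ssc-miR-34c was 2.21 larger in LC than in HZ boars (adjusted p = 0.140), and all 3 libraries at 120 days were above all 3 at 30 days in each breed. The value was 1.73 without Hb1 and 3.74 without Hb3. The log2 age change of ssc-miR-34a was 2.04 more positive in LC boars (adjusted p = 0.0845): all 3 Hb libraries were below all 3 Ha libraries, whereas La and Lb overlapped. The value was 1.45 without Ha2 (adjusted p = 0.211) and 2.56 without Hb3. Groups of 3 libraries were too small for a test for single outlying libraries, so the account of Hb1 is a description.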

How the results depend on the processing

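Of the 6 members with a count in every library, the age comparison called 6 for HZ and 5 for LC boars under every alternative fit and with each library left out, before adjustment. Leaving out single libraries gave 2 to 5 members in Ha vs. La, 1 to 2 in Hb vs. Lb and 2 to 5 for the interaction, against 3, 1 and 2 with all libraries. With adjusted p-values the counts were 0 in Hb vs. Lb and 0 for the interaction, and robust estimation gave 1 for the interaction; the cause was not tested. The replicate block gave 2 members in Hb vs. Lb, adding ssc-miR-34c at 1.58, and 3 for the interaction, adding miR-34-y; with it ssc-miR-34a did not pass after adjustment in Ha vs. Hb (adjusted p = 0.0516) and passed in Hb vs. Lb (adjusted p = 0.0147). Deviations of libraries with the same number had correlations of -0.242 to 0.168. With 3 libraries per group these values cannot show whether the numbers pair the samples. The sources used here state no such pairing.

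Signs turned only for members that were not called. miR-449-y in Hb vs. Lb (-0.01) became 0.17 with library sizes only, 0.013 with all 12 libraries in 1 fit, 0.047 with the replicate block, 0.16 as a ratio of mean TPM plus 1, and -0.21 to 0.28 with a library left out. With a library left out, miR-34-y ranged from -0.54 to 0.27 and miR-34-x from -0.85 to 0.017 there, and both turned positive without Hb1. ssc-miR-34a in La vs. Lb ranged from -0.068 to 0.27 and turned negative without Lb1 and without Lb2. The interaction of miR-34-x ranged from -0.13 to 0.76 and turned negative without Ha2 and without Hb2. Scaling by library size alone moved the median of all miRNAs from 0.06 to 0.32 in Hb vs. Lb, from 0.32 to 0.54 in La vs. Lb and from 0.09 to 0.42 for the interaction, and changed no call of the 6 members with a value in every library. The log2 ratio of miR-449-x to miR-449-y in Ha moved from 4.49 to 4.89 with 0.1 added in place of 1. Of the 5 miRNAs most like ssc-miR-34c, 0 stayed with Spearman's correlation and 1 when only the 6 libraries at 120 days were used. Depth limits the 30-day values of miR-34-x, miR-449-y, miR-449-z and miR-34-z, which rest on 38 counts or fewer in a group.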
